A study of Mus musculus with 16 samples.

Results

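The probes described here read immunoglobulin (IG) and T cell receptor (TR) gene segments in mouse liver. They were the 235 probes, of 24048 on the bead array, whose identifier begins with IG or TR and names a segment, so no measured value entered the choice. Of these, 203 were immunoglobulin probes (113 for the heavy chain IGH, 86 for the kappa light chain IGK and 4 for the lambda light chain IGL). The other 32 were T cell receptor probes, with 18 for the alpha chain TRA, 12 for the beta chain TRB, 1 for gamma (TRG) and 1 for delta (TRD). By segment, 227 read variable (V) segments and 8 read constant regions, and no probe was named for a diversity or joining segment.

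Total liver RNA was compared between 7 Lactb transgenic mice and 9 FVB wildtype mice, all male and 23 weeks old. Lactb encodes a serine beta-lactamase-like protein of mitochondria. Every animal ate chow with 4% fat up to the age of 11 weeks and chow with 6% fat from then on. The promoter, the founder line and the background strain of the transgenic animals are not given in the sources used here, nor is it stated whether littermates were used.

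B cells and T cells build their antigen receptors by joining V, diversity and joining segments in each cell, and the joined V region is then spliced to a constant region. Plasma cells, the antibody-secreting descendants of B cells, hold very large amounts of immunoglobulin mRNA, most of it with a kappa light chain in the mouse. The liver is no site of B cell development in the adult, but blood and resident B cells, plasma cells and T cells are present in it. Each clone uses a single joined V segment per chain, so a V segment probe reads only the clones that use its segment or a close relative of it.

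The values were deposited as intensities, the brightness of a probe on a linear scale after background subtraction, so a value below 0 lies under the background subtracted. Detection means an intensity above the one-sided 95% point of the array's noise, whose SD was taken from the values below 0. This limit lay between 17.1 and 32.5 intensity units, and 9907 to 11564 probes were detected on each array. Levels are log2 values after background correction and quantile normalization, with an offset of 16 that compresses the differences of dim probes. Brightness also depends on the probe, so the intensities of different probes are not compared as amounts of RNA. Hepatocyte markers were bright, with the Apoa1 probe (apolipoprotein A-I) at 23572 to 35370 in transgenic livers and 20434 to 36045 in wildtype livers. The arrays differed most along 1 axis (57.2% of the variance), on which 6 animals stood apart. In those 6 (transgenic 1 and 2, wildtype 1, 2, 8 and 9) the intensity of Gpnmb, a lysosomal glycoprotein of lipid-laden macrophages, was below 0, against 567.6 to 4441 in the other 10. In bulk RNA, fewer lymphocytes and less receptor RNA per lymphocyte cannot be told apart.

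Most of the receptor segments were not detected in liver. Of the 235 probes, 41 (17.4%) were detected on at least 6 of the 16 arrays, against 47.1% of all probes. The same count was 43 of 433 (9.93%) for odorant and pheromone receptor probes, taken as a class of genes not expected in liver. Detection on at least 1 array held for 81 segment probes (59.6% over all probes), and 9 were detected on all 16 arrays (32.4% over all probes). The remaining 154 were detected on no array, and 115 of the 235 had a mean intensity below 0. Each array detected 31 to 48 segment probes in transgenic livers and 29 to 46 in wildtype livers. The median intensity over the 235 probes lay between -1.10 and 1.90 on every array, close to the background and above the -5.70 to -2.40 of the odorant and pheromone receptor probes.

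Constant regions were detected more often than V segments, with 4 of 8 against 37 of 227 (16.3%). By chain, detection was 2 of 4 for IGH constant regions and 15 of 109 (13.8%) for IGH V segments. For the kappa chain the single constant region probe and 18 of 85 V segment probes (21.2%) were detected. For the lambda chain, 1 of 3 constant regions was detected and the single V segment was not. Among T cell receptor probes, 2 of 18 TRA, 2 of 12 TRB and neither the TRG nor the TRD probe were detected. The array medians of the immunoglobulin probes ranged from -0.40 to 2.90 and those of the T cell receptor probes from -17.5 to -2.80. These shares differed with the probes on the array and were not tested against each other.

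**Figure D1:**
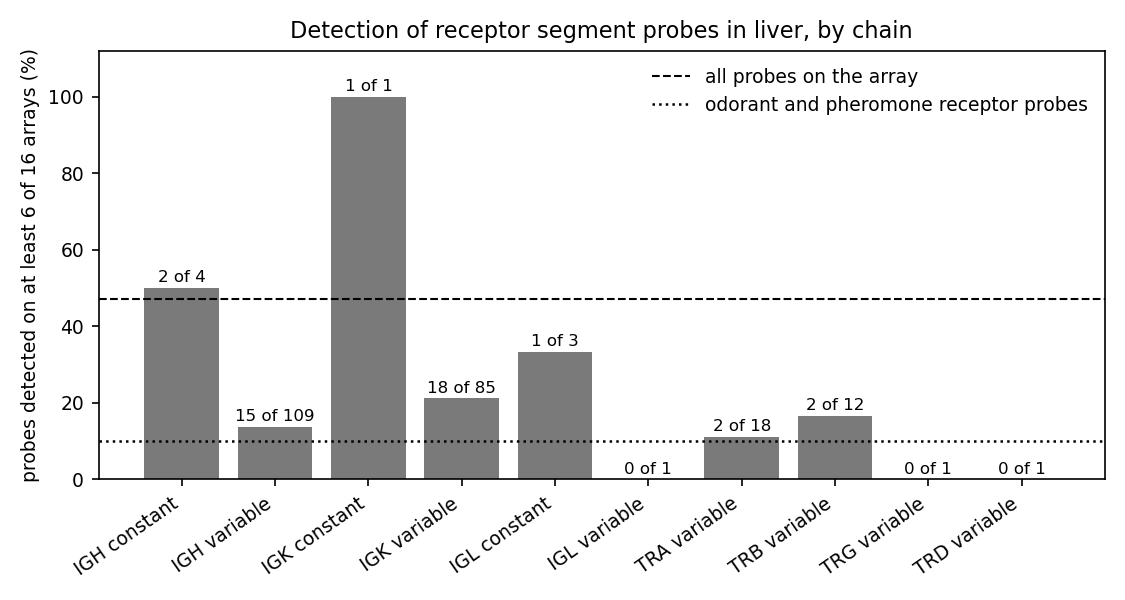
Share of receptor segment probes (percent, vertical axis) detected on at least 6 of the 16 arrays, for each chain and segment kind, with the counts above the bars. The dashed line marks all probes on the array (47.1%) and the dotted line the odorant and pheromone receptor probes (9.93%), and the IGK constant region is the only class in which every probe was detected, with 1 of 1.

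Within the V segments, detection was spread over many subgroups. In the heavy chain it was 8 of 55 for IGHV1, the largest subgroup on the array, 4 of 22 for IGHV5, 2 of 4 for IGHV7 and 1 of 8 for IGHV8. In the kappa chain it was 5 of 28 for IGKV4, 3 of 9 for IGKV8, 3 of 6 for IGKV1 and 2 of 7 for IGKV12. None of the 7 IGKV6 probes reached 6 arrays, and 4 of them were detected on at least 1. A total of 124 segments carry a symbol of the RefSeq table. Among those listed there as V segment pseudogenes, which encode no usable V region, 3 of 15 (20%) were detected, against 19 of 101 (18.8%) of those listed as functional V segments. The pseudogenes detected were IGKV8-31, IGKV4-75 and TRBV11. V segments of a subgroup are related in sequence, and whether a probe also reads RNA of its relatives was not tested, because no probe sequence was used here.

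The detected probes were dim apart from 1. The IGKC probe, for the constant region shared by all kappa light chains, averaged 366.7 over the 16 animals. The other 40 detected probes had mean intensities from 16.5 to 67.0. In all, 4 of the 235 probes exceeded 100 on any array, namely IGKC and the V segments IGKV1-110, IGKV6-15 and IGKV6-23.

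Kappa light chain RNA varied widely between animals of the same genotype. The intensity of IGKC was 270, 289, 176, 167, 423, 579 and 627 in transgenic livers 1 to 7, and 345, 479, 218, 163, 794, 339, 258, 359 and 381 in wildtype livers 1 to 9. The highest value was 4.86 times the lowest, in animals (wildtype 5 and wildtype 4) of 1 genotype whose sample titles carry the same number. Both genotypes held animals at the low and at the high end, and the groups overlapped over nearly their whole ranges. A further probe on the array, named Igkc through the gene number in its identifier and therefore outside the 235, gave 302 to 1200 in transgenic livers and 291 to 1278 in wildtype livers. Across the 16 animals the log2 levels of IGKC and Igkc correlated with Pearson r = 0.988 and Spearman rho = 0.979 (permutation test, two-sided, p = 1e-05 for each, the smallest that 100000 permutations can give, and 2e-05 after adjustment over the 2 pairs of same-gene probes). Pearson r was 0.982 without the 2 animals farthest from the median of IGKC, 0.990 within the transgenic and 0.988 within the wildtype animals. It was 0.931 over the 6 animals with Gpnmb below 0 and 0.992 over the other 10. The spread of IGKC between animals was therefore measured alike by both probes. The SD of its log2 level over the 16 animals was 0.61, against a median SD of 0.20 over all tested probes and 0.22 over the 41 segment probes. The offset compresses the spread of dim probes, which the other segment probes are, so these SDs do not compare variation in RNA.

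The constant regions of the heavy chains behaved differently from one another. IGHA, for the heavy chain of IgA, the antibody of mucosal surfaces and bile, was detected on all 16 arrays. Its intensity ran from 42.3 through a median of 71.9 to 95.1 in transgenic livers and from 47.4 through 67.3 to 83.3 in wildtype livers. Transgenic 4, with 167 for IGKC, had 76.1 for IGHA, near the upper end of the transgenic range. IGHD, for the heavy chain of IgD on naive B cells, was detected on 8 arrays, 1 of the 7 transgenic and 7 of the 9 wildtype, with a limit that differs by array. IGHM, for the heavy chain of IgM, was detected on 3 arrays, with intensities of -8.50 to 42.5 in transgenic and -5.20 to 52.4 in wildtype livers. IGHG2C, for a heavy chain of IgG, was detected on 2 arrays, with 34.5 in transgenic 6 and 23.6 in wildtype 5. Those livers were also among the 3 with most IGKC, and r of IGHG2C with IGKC was 0.464 over the 16 animals, 0.842 within the 10 with Gpnmb above 0 and -0.128 within the other 6, as a description.

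IgM readings were high in animals with low Gpnmb. The 5 highest IGHM values were 42.5 in transgenic 2 and 52.4, 52.1, 30.3 and 23.4 in wildtype 2, 8, 1 and 9, and Gpnmb was below 0 in each of these animals. The exception in the other direction was transgenic 1, with Gpnmb at -2 and IGHM at 6.90. A second probe named Ighm, detected on all 16 arrays, was also highest in the 6 animals, with 147 and 185 in transgenic 1 and 2, and 261, 271, 254 and 175 in wildtype 1, 2, 8 and 9. In the other 10 animals it read 84.7 to 128 in transgenic and 95.2 to 122 in wildtype livers. The share of all probes that separate these 6 animals from the other 10 was not counted, so the separation is not shown to be particular to IgM. The 6 arrays detected 9907 to 10252 probes each, and the other 10 arrays 9956 to 11564. The part of these animals' position on the main axis, and of their arrays, in the IgM readings was not tested. Over all 16 animals IGHM and Ighm correlated with r = 0.881 and rho = 0.794 (two-sided permutation test, p = 2e-05 and 0.00038, the same after adjustment over the 2 same-gene pairs), and r was 0.795 without the 2 animals farthest from the median of IGHM. Within the 6 animals r was 0.703 and within the other 10 it was 0.402. The correlation of IGHG2C with Ighm, given as a description, was r = -0.556 over the 16 animals, 0.0666 within the 6 and -0.302 within the other 10. For IGKC the 6 animals read 270 and 289 in transgenic and 345, 479, 359 and 381 in wildtype livers, in the middle of the range.

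**Figure D2:**
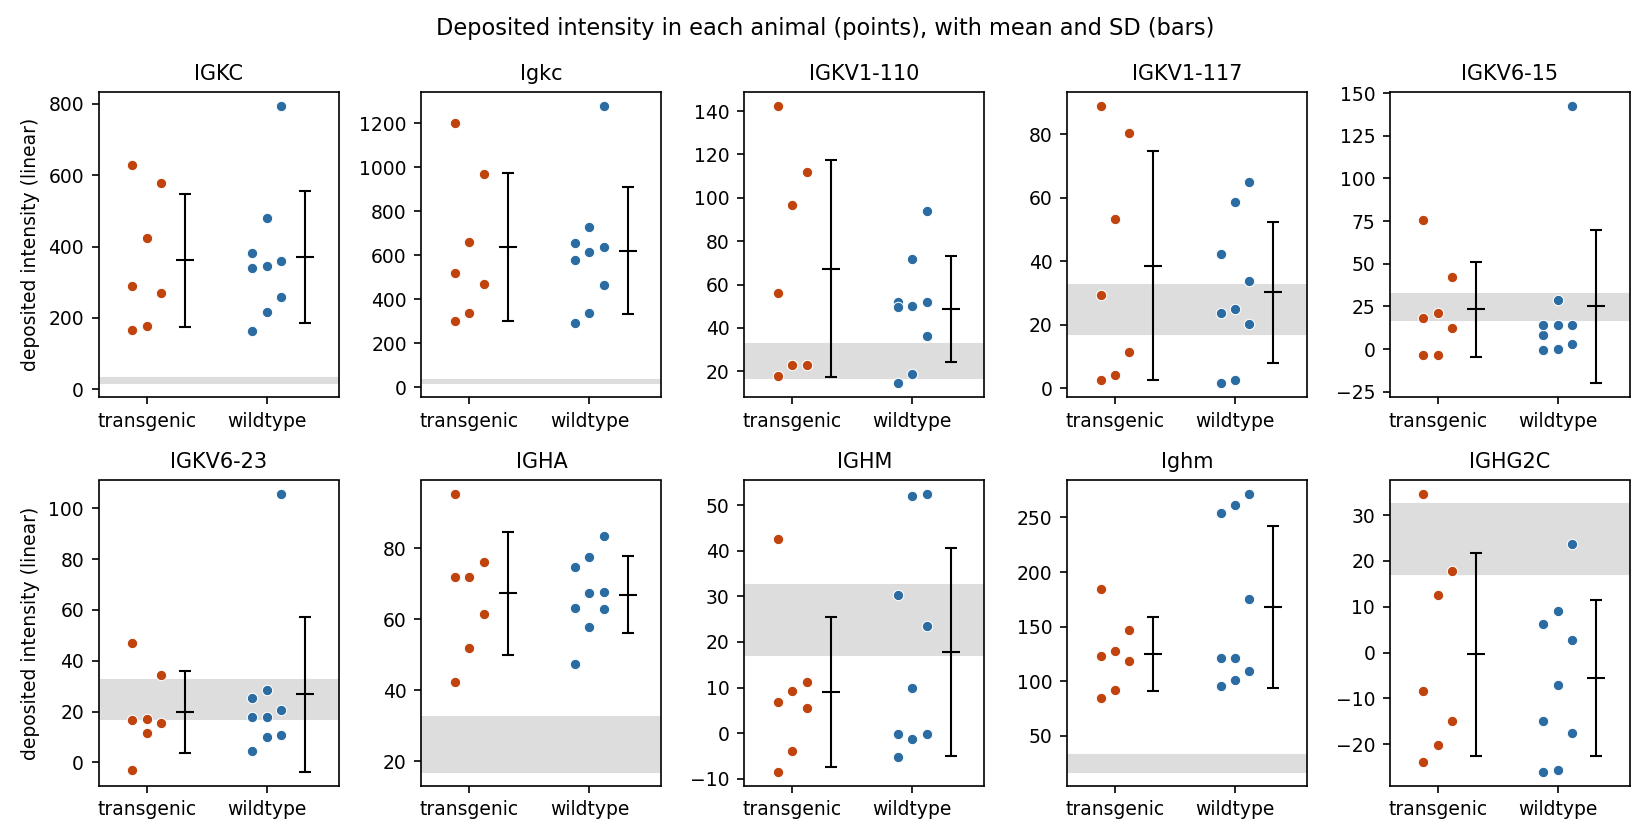
Deposited intensity (linear, vertical axes) of 10 receptor probes in each animal, with the transgenic livers (n = 7) left and the wildtype livers (n = 9) right in each panel. Points are animals, bars are mean and SD, and the grey band spans the detection limits of the arrays (17.1 to 32.5). The genotypes overlap in every panel, IGKC spans 163 to 794, and wildtype 5 stands above all other animals for IGKV6-15 (142.5) and IGKV6-23 (105.5).

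Among the light chain constant regions other than kappa, IGLC2 was detected on 11 arrays, 6 transgenic and 5 wildtype. Its intensity was 21.5 to 47.1 with a median of 32.5 in transgenic livers and 12.9 to 38.6 with a median of 27.9 in wildtype livers. IGLC1 was detected on no array and IGLC3 on 3. The lambda V segment IGLV2 was detected on 1 array. The correlation of IGLC2 with IGKC is given with the other pairs of chains.

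The 5 V segments of widest intensity range over the 16 animals were all kappa segments, IGKV6-15, IGKV1-110, IGKV6-23, IGKV1-117 and IGKV6-17. IGKV1-110 read 17.8 to 142.4 with a median of 56.3 in transgenic livers and 14.5 to 94.0 with a median of 50.2 in wildtype livers. IGKV1-117, of the same subgroup, read 2.70 to 89.0 with a median of 29.5 in transgenic livers and 1.6 to 65.0 with a median of 25.0 in wildtype livers. For both, transgenic 3 and 4 and wildtype 3 and 4, which rank among the lowest 4 animals for IGKC, were under the detection limit. Transgenic 5, 6 and 7 held the highest 3 values of IGKV1-110. IGKV6-15 reached 142.5 in wildtype 5, 75.7 in transgenic 6 and 42.1 in transgenic 7, the 3 livers with most IGKC, and was at most 28.8 elsewhere. IGKV6-23 was likewise highest in wildtype 5, at 105.5, followed by 46.9 in transgenic 6 and 34.3 in transgenic 7. IGKV6-17 and IGKV6-25 were detected on 1 array each, that of transgenic 7, at 43.3 and 35.9.

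Likeness to IGKC, the detected segment probe of highest mean, was measured by Pearson r of log2 levels over the 16 animals. Of all 11317 probes detected on at least 6 arrays, the 5 most like it were Igkc (r = 0.988), IGKV1-117 (r = 0.857), IGKV1-110 (r = 0.835), Ap2s1, which encodes a subunit of a clathrin adaptor (r = 0.795), and a probe without a gene name (r = 0.767). Over all 85 kappa V segments, detected or not, the median r was 0.15 and 6 exceeded 0.60 (7.06%). Over the 109 heavy chain V segments the median was 0.034 and 0 exceeded 0.60, and over all probes the median was -0.011 and 1% exceeded 0.60. The 6 kappa segments were IGKV1-110, IGKV1-117, IGKV6-14, IGKV6-15, IGKV6-17 and IGKV6-23, of which IGKV6-14 was below the detection limit on every array. The subgroup IGKV6 did not move as a whole, with r = 0.484 for IGKV6-25, -0.268 for IGKV6-20 and -0.324 for IGKV6-29. No probe of the heavy chain constant regions, IGL, TRA or TRB exceeded 0.60. These correlations are descriptions: the points share arrays and depth of signal, and segments of a subgroup may share reads of the same RNA. IGKV1-110 with IGKV1-117 (r = 0.927) and IGKV6-15 with IGKV6-23 (r = 0.843) were pairs as close as those with IGKC.

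A slope on IGKC was fitted for every tested probe with limma, a test added after the values were known, with p-values adjusted over 11316 probes (Benjamini-Hochberg). It called 3 probes at an adjusted p of 0.05, or 0.0265% of those tested, and 2 of them were among the 40 segment probes. The Igkc probe rose by 1.02 log2 units per log2 unit of IGKC (SE 0.051, limma adjusted p = 2.39e-09). IGKV1-117 rose by 0.66 (SE 0.10, limma adjusted p = 0.0272) and IGKV1-110 by 0.65 (SE 0.11, limma adjusted p = 0.0493). At an unadjusted p under 0.05, 7 of the 40 segment probes and 6.80% of all tested probes had a slope, and 23 of the 40 slopes were positive, 14 of them in the kappa chain, against 46.7% positive slopes over all tested probes. The calls of both V segments were close to the threshold. Over the alternatives the adjusted p ran from 0.000834 to 0.325 for IGKV1-117 and from 0.00365 to 0.350 for IGKV1-110, while their slopes stayed positive in all 30 alternatives run. Omitting 1 animal ended both calls for transgenic 3, 4, 6 or 7 and for wildtype 2, 3, 4, 6 or 9, and that of IGKV1-110 alone for transgenic 2 and for wildtype 1, 7 or 8. The slope is larger for a bright probe than for a dim one at equal proportional change, because of the offset. Within animals with Gpnmb below 0, r with IGKC was 0.706 for IGKV1-117 and 0.362 for IGKV1-110, and within the other 10 it was 0.891 and 0.900. By genotype it was 0.966 in transgenic and 0.749 in wildtype livers for IGKV1-117, and 0.906 in transgenic and 0.823 in wildtype livers for IGKV1-110.

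**Figure D3:**
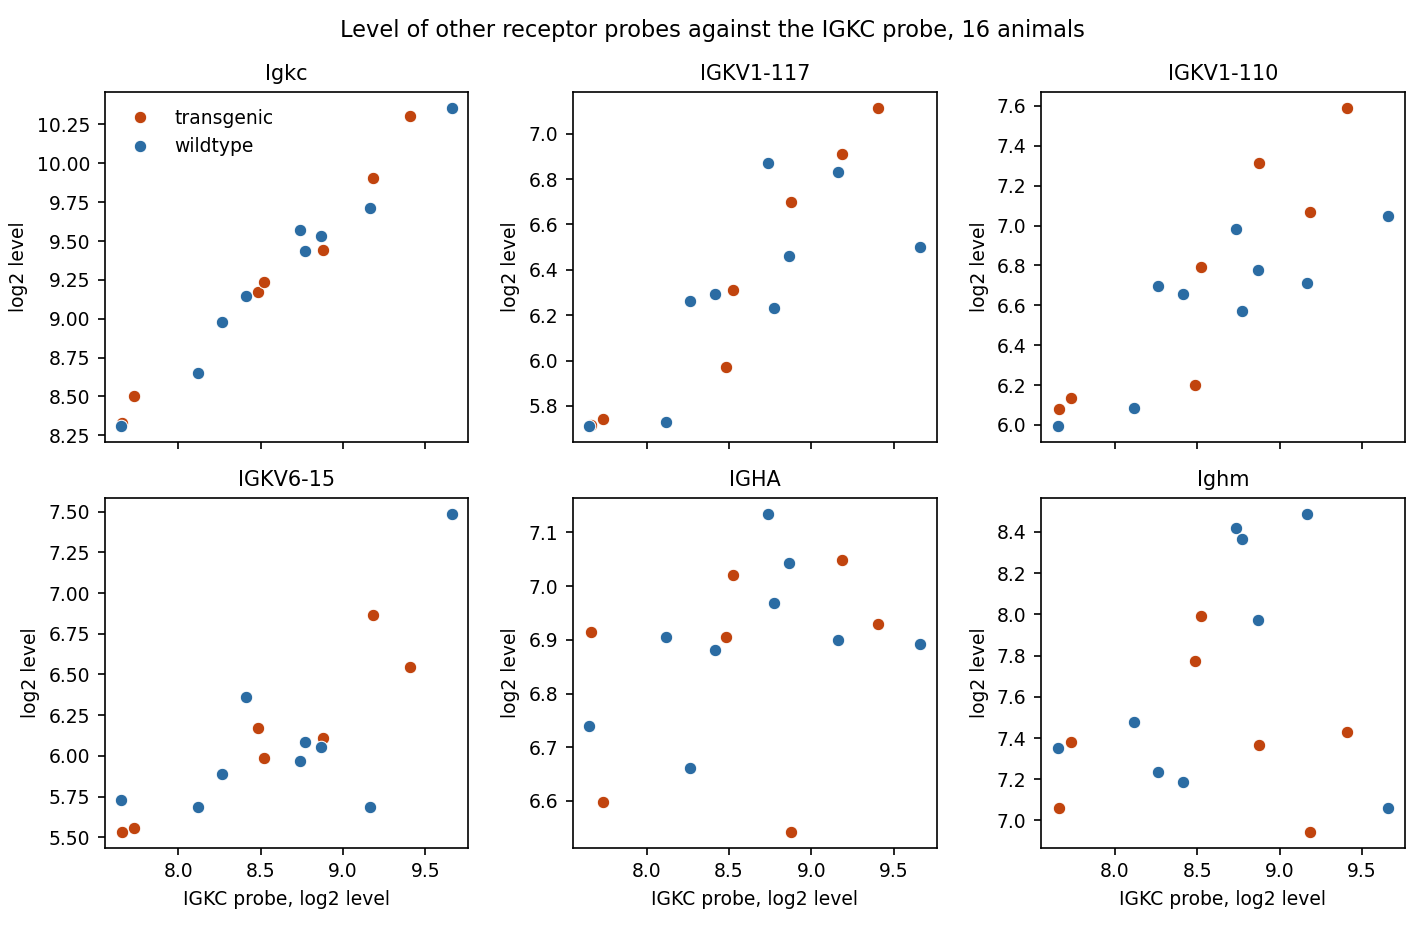
Log2 level of 6 receptor probes (vertical axes) against the log2 level of the IGKC probe (horizontal axes), 1 point per animal, transgenic in orange and wildtype in blue. Igkc (r = 0.988), IGKV1-117 (r = 0.857) and IGKV1-110 (r = 0.835) run along IGKC in both genotypes. For Ighm r was 0.178 over the 16 animals, 0.701 within the 6 with Gpnmb below 0 and -0.27 within the other 10.

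The kappa V segments differed in which animals were high. For IGKV6-15 r with IGKC was 0.765 over all animals, 0.689 without the 2 animals farthest from the median of IGKC, 0.916 within the 10 animals with Gpnmb above 0 and -0.789 within the other 6, whose intensities of 0 to 21.1 all lay under the detection limit. For IGKV6-23 r was 0.630, and 0.445 without 2 animals. Among the other kappa segments detected on at least 6 arrays, r was highest for IGKV17-121 (r = 0.589), IGKV4-61 (r = 0.526), IGKV1-88 (r = 0.520) and IGKV8-19 (r = 0.465). It was lower for IGKV12-44 (r = 0.206), IGKV14-100 (r = 0.0205) and IGKV8-24 (r = -0.353). The pseudogene IGKV4-75 ran against it, with r = -0.594. In the plot of likeness against spread, the 5 V segments of widest range have r from 0.630 to 0.857, and the next, IGKV12-41, has r = 0.258.

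**Figure D4:**
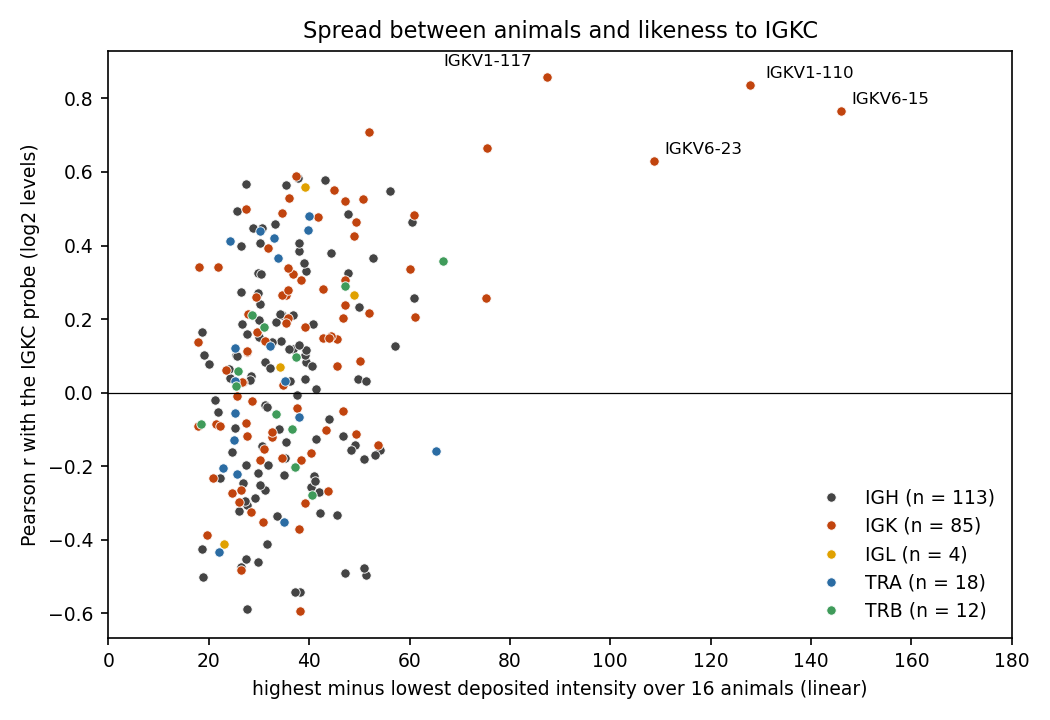
Pearson r of each segment probe with IGKC over 16 animals (vertical axis) against its highest minus lowest deposited intensity (linear, horizontal axis), coloured by chain. The 232 points are all members of the IGH, IGK, IGL, TRA and TRB chains other than IGKC, and the 4 labelled kappa V segments are those of widest range.

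T cell receptor probes were dim. TRAV6-1, an alpha chain V segment, was detected on 15 arrays, with 26.2 to 87.0 and a median of 39.7 in transgenic livers and 21.7 to 72.0 and a median of 40.9 in wildtype livers. TRBV1, a beta chain V segment, was detected on 13 arrays, all 7 transgenic and 6 of 9 wildtype, with 24.2 to 56.2 and a median of 31.1 in transgenic livers and 19.1 to 35.5 and a median of 25.0 in wildtype livers. TRAV9D-2 was detected on 7 and TRBV11 on 10 arrays. TRDV5 and TRGV1 were detected on none, with means of -24.5 and -18.9. Among receptor probes outside the 235, Trdv2-2, a delta chain V segment, was detected on all 16 arrays, at 56.7 to 74.3 in transgenic and 52.4 to 93.3 in wildtype livers.

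No relation between the levels of different chains across animals passed its test. For each chain with a detected probe the one of highest mean level was taken (IGHA, IGKC, IGLC2, TRAV6-1 and TRBV1), and the 10 pairs were tested over 16 animals with two-sided permutation tests and 100000 resamples. The highest correlation was r = 0.418 for IGLC2 with TRBV1 (rho = 0.262, raw p = 0.108, adjusted p = 0.823, and r = 0.519 without the 2 animals farthest from the median of IGLC2). For IGKC with IGLC2 r was 0.0697 (rho = 0.0412, raw p = 0.797, adjusted p = 0.885, and r = 0.255 without 2 animals). For IGHA with IGKC r was 0.366 (rho = 0.324, raw p = 0.165, adjusted p = 0.823, and r = 0.399 without the 2 animals farthest from the median of IGHA). No pair passed, with the lowest adjusted p at 0.823 for Pearson and 0.631 for Spearman correlations. Within the 6 animals with Gpnmb below 0 the 10 values of r ran from -0.971 to 0.462, and within the other 10 animals from -0.524 to 0.354. With 16 animals a moderate correlation can be missed.

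Transgenic and wildtype livers were then compared probe by probe with limma over all 11317 tested probes. No segment probe was called (0 of 41 at an adjusted p of 0.05, against 0% of all tested probes). At an unadjusted p under 0.05, 2 of the 41 were found, against 2.93% of all tested probes. Both were lower in transgenic livers, a direction in which 1.81% of all tested probes passed that mark. Of these 2, IGHD entered the test through the wildtype livers, where it was higher, so its count and direction carry no weight. In all, 18 of the 41 were higher in transgenic livers, against 48.7% of all tested probes, and 23 were lower. The median log2 difference of the 41 was -0.0096, against -0.0041 over all tested probes. By chain the median was -0.045 for 17 IGH probes, -0.045 for 19 IGK probes, 0.090 for the single IGL probe, -0.012 for 2 TRA probes and 0.077 for 2 TRB probes. No segment probe had groups that did not overlap (0.00884% of all tested probes).

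The smallest p among the segments belonged to IGHD. This probe was detected on 1 transgenic and 7 wildtype arrays, so it passed the filter of 6 arrays through the wildtype livers, where it was higher. Its p and interval are therefore given as descriptions. Its intensity was 7.5 to 32.6 with a median of 15.4 in transgenic livers and 18.3 to 36.0 with a median of 26.9 in wildtype livers. Transgenic 3 and 7, at 32.6 and 20.2, lay within the wildtype range and the other 5 transgenic livers lay under the lowest wildtype value. The log2 level averaged 6.05 ± 0.15 in transgenic (SD, n = 7) and 6.29 ± 0.12 in wildtype livers (SD, n = 9), a difference of -0.24 (SE 0.075, limma unadjusted p = 0.00491, adjusted p = 0.932). IGKV12-44 was 28.0 to 48.9 with a median of 34.9 in transgenic livers and 27.7 to 88.7 with a median of 51.2 in wildtype livers. Its transgenic values fell in the lower part of the wildtype range, and the log2 difference was -0.26 (SE 0.11, limma unadjusted p = 0.025, adjusted p = 0.932).

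For the remaining named segments the differences were small. IGKC averaged 8.55 ± 0.67 in transgenic (SD, n = 7) and 8.63 ± 0.59 in wildtype livers (SD, n = 9), a difference of -0.075 (SE 0.29, limma adjusted p = 0.975). IGHA differed by -0.051 (SE 0.088), IGLC2 by 0.090 (SE 0.087), TRAV6-1 by 0.039 (SE 0.14) and TRBV1 by 0.15 (SE 0.084). IGKV1-110 differed by 0.13 and IGKV1-117 by 0.031 (SE 0.22 each). The heavy chain V segments of smallest p were IGHV5S1 (-0.18, SE 0.10), IGHV7S2 (0.15, SE 0.10), IGHV1S42 (0.11, SE 0.089), IGHV8S4 (-0.16, SE 0.12) and IGHV5S15 (-0.096, SE 0.099). IGHV1S136, named for its spread, differed by -0.063 (SE 0.14). The other named kappa segments, all with SEs of 0.083 to 0.13, were IGKV4-57 (0.12), IGKV4-51 (0.084), IGKV12-41 (0.062), IGKV4-61 (0.057), IGKV4-75 (-0.056), IGKV8-31 (-0.064), IGKV17-121 (-0.077) and IGKV14-100 (-0.082). All these differences had adjusted p of 0.932 or more in limma. The 95% intervals of 39 of the 41 segment probes lay within a 1.5-fold change in either direction on the offset log2 scale. The exceptions were IGKC (-0.68 to 0.53) and IGKV1-110 (-0.34 to 0.60). For dim probes the offset narrows these intervals, so they do not bound the change in RNA.

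**Figure D5:**
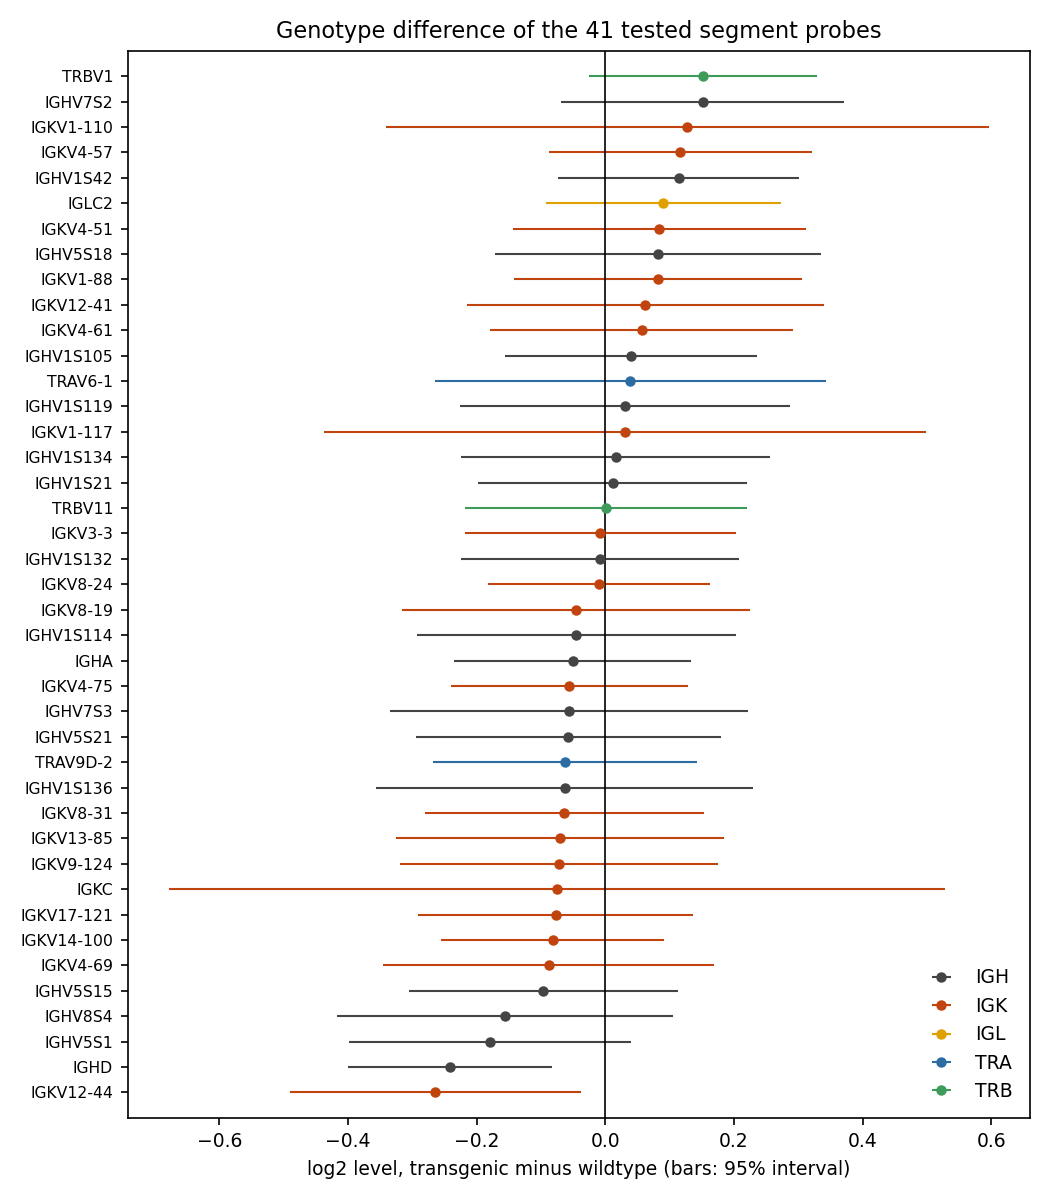
Log2 level in transgenic minus wildtype livers (horizontal axis) for the 41 segment probes tested, with 95% intervals as bars and colours by chain. IGHD (-0.24) and IGKV12-44 (-0.26) are the probes whose interval lies below 0, and IGKC has the widest interval (-0.68 to 0.53). IGHD entered the test through the wildtype livers, where it was higher, so its interval is a description.

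Other immunoglobulin probes outside the 235 were not called between genotypes. Igkc differed by -0.028 (SE 0.30) and Ighm by -0.31 (SE 0.23), with the Ighm level at 7.42 ± 0.37 in transgenic (SD, n = 7) and 7.73 ± 0.58 in wildtype livers (SD, n = 9), and limma adjusted p of 0.990 and 0.932. Of the 6 animals with Gpnmb below 0, in which Ighm was highest, 2 were transgenic and 4 wildtype, and the part of this in the Ighm difference was not tested. The Jchain probe, for the joining chain that links the units of secreted IgA and IgM, was detected on no array, at -45.2 to -15.8 in transgenic and -39.2 to -17.6 in wildtype livers. Ighg3, a heavy chain of IgG, was also detected on none.

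Markers of the cells that make these chains gave a partial view, because few had a named probe. Of 20 B cell genes 4 had one and 2 were tested, Cd74 (log2 difference 0.081, SE 0.25) and H2-Ab1 (0.050, SE 0.23). Both belong to antigen presentation by class II molecules and are also made by macrophages and dendritic cells, and the 2 other probes, Fcer2a and Ebf1, were detected on 0 and 2 arrays. Of 14 plasma cell genes 6 had a probe and 5 were tested, among them Eaf2 (0.13, SE 0.13) and Txndc5 (-0.089, SE 0.10). Of those tested, Sdc1, Xbp1, Ssr4 and Txndc5 are also expressed by hepatocytes, and Jchain was the one not detected. Of 25 T cell genes 10 had a probe and 3 were tested, Ptcra (-0.19, SE 0.11), Il7r (0.37, SE 0.28) and Cd3e, part of the receptor complex (-0.025, SE 0.15). Cd8b1, Icos, Foxp3 and Gata3 were detected on no array. None of 4 natural killer cell genes was tested. Of 7 genes of receptor gene rearrangement and class switching with a probe 6 were tested, among them Ung (-0.15, SE 0.13) and Prkdc (-0.074, SE 0.091), repair enzymes present in most cells. None of these lists held a gene called between genotypes or along IGKC (0 each in limma), and none of their members had an unadjusted genotype p under 0.05. Before adjustment, 4 of their tested genes passed 0.05 in limma for the slope on IGKC, where 6.80% of all tested probes did. These 4 were Xbp1 (slope -0.29) and Ssr4 (slope -0.18) of the plasma cell list, Rag1 (slope 0.17) and Xrcc4 (slope -0.20). The genes tested numbered 2 for B cells, 5 for plasma cells, 3 for T cells and 6 for rearrangement and class switching. Of the 5 plasma cell genes, 1 had a positive slope, against 46.7% of all tested probes.

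Summed intensities of the tested markers overlapped between genotypes in every list. For T cells the sum was 51.7 to 156 in transgenic and 45.2 to 163 in wildtype livers, and for B cells 1410 to 5957 in transgenic and 2333 to 5570 in wildtype livers. For plasma cells it was 8541 to 11852 in transgenic and 8052 to 11594 in wildtype livers. The B cell sum holds Cd74 and H2-Ab1 alone, which macrophages also make. Most of the plasma cell sum came from Xbp1 and Ssr4, which hepatocytes also express, so neither sum reads those cells alone. Among genes that bind or carry antibody, Pigr, the receptor that moves IgA into bile, differed by -0.10 (SE 0.068) and Fcgr3, an activating IgG receptor, by 0.36 (SE 0.31). Pan-leukocyte genes had 2 of 5 probes tested, Cd53 (0.26, SE 0.25) and Lcp1 (0.056, SE 0.083), and Ptprc, the common leukocyte antigen, was detected on no array. Macrophage genes had 5 of 5 tested and all 5 higher in transgenic livers without passing, against 48.7% of all tested probes higher. Their median difference was 0.85, with Mmp12 at 0.95 (SE 0.74) and Csf1r at 0.18 (SE 0.15). The list includes Gpnmb, and the 6 animals with Gpnmb below 0 were unevenly split between the genotypes. The part of that split in these differences was not tested. Of neutrophil genes 4 of 6 were tested, with Cxcr2 at 0.15 (SE 0.099) and S100a9 at 0.48 (SE 0.42). Of these 4, 3 were higher in transgenic livers and 1 lower, against 48.7% of all tested probes higher. The red cell genes Hbb-b1 (-0.083, SE 0.079) and Hbb-b2 (-0.18, SE 0.23) and the hepatocyte genes Serpina1a (-0.31, SE 0.30) and Trf (0.039, SE 0.051) did not pass either. These lists had 0 calls in limma at the adjusted threshold and 0 members with an unadjusted p under 0.05.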

How the data were processed

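Total liver RNA of 16 mice was made into biotin-labelled cRNA for Illumina bead arrays, per the labels' protocols. The deposited value table holds 1 intensity per probe and animal on a linear scale. BeadStudio 1.5.1.3 was used, per the submitters' processing notes. The scaling method and the genome build are not given in the sources used here, so no coordinates are printed. The mean over all probes was 331.4 to 333.5 on the 16 arrays, so the deposited intensities were already alike in mean. A further table with 128 per-sample columns, named by chip position, was not used because no label ties them to animals.

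Deposited intensities were corrected with normexp on each array (saddle-point fit, offset 16), log2-transformed and then quantile normalized (limma 3.58.1 in R 4.3.3). The noise SD was the root mean square of an array's negative values, and the detection limit was the one-sided 95% point of normal noise with that SD. Every probe above the limit on 6 or more arrays was tested with lmFit and eBayes, two-sided, with Benjamini-Hochberg adjustment over all tested probes, and no covariates. The fits were checked on simulated data. Genes other than the segments were named by matching the number in the probe identifier to a RefSeq table of GRCm38.p6, which named 8893 probes (37.0%), and a gene was read by its tested probe of highest mean.

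The members and lists were chosen with earlier results of these data known. Named segments are the tested constant regions, the 12 of highest mean, the 12 of smallest p, the first of each chain and kind, the 5 of largest SD, those detected on all arrays and the 5 probes most like IGKC. For each marker list the 2 genes of smallest p are named. Others, such as IGHM, IGHG2C and the IGKV6 segments, were chosen after their values were seen. Nothing in the labels says what the numbers in sample titles mean or that they pair animals. The consensus correlation between animals of the same genotype and title number was 0.379 in the genotype fit and 0.433 in the slope fit. The main fits and the permutation tests treated all animals as independent. Precision is limited by the number of arrays, and p-values measure the spread between these animals.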

Additional observations from a re-analysis of the deposited data

Results flagged for a closer look

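In 64 groups checked (32 segment probes in each genotype) 3 held 1 animal farther from the rest than Dixon's 95% limit. Chance alone marks about 1 group in 20. All 3 were IGKV6 segments, which were chosen after their values were seen, so that rate does not apply to them. The log2 level of IGKV6-15 in wildtype 5 was 7.49, with the next wildtype animal at 6.36 and an intensity of 142.5. IGKV6-23 stood out in the same liver, at 7.16 against 6.35 for the next and an intensity of 105.5. Both are kappa V segments of 1 subgroup, and this liver also had the most IGKC. IGKV6-29 in transgenic 7 was low, at 4.51 against 5.36 for the next and an intensity of -25.9, under the detection limit.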

How the results depend on the processing

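The count of detected segment probes was 12 at 3 times the noise SD, 81 when 1 array sufficed and 9 when all 16 were required, 60 at 1 noise SD and 32 with a limit at the 95th percentile of the odorant and pheromone receptor probes. It was 40 to 41 without 1 animal. No setting called a segment probe between genotypes (0 in 29 settings), and 1180 single differences kept their direction while 32 turned. With the title number as a fixed replicate block the differences were -0.0078 for IGHV7S2, -0.068 for IGKV12-41, -0.066 for IGLC2, -0.19 for TRAV6-1 and -0.071 for H2-Ab1, and as a random replicate block 0.034 for IGKC. Array weights gave -0.028 for TRAV6-1, the number of detected probes as a covariate -0.044 for Cd74 and -0.048 for H2-Ab1, and median scaling -0.00082 for Trf. Without 1 animal the difference ran from -0.084 to 0.00081 for IGHA, -0.13 to 0.00075 for IGHV1S136, -0.22 to 0.074 for IGKC, -0.014 to 0.24 for IGKV1-110, -0.096 to 0.14 for IGKV1-117, -0.016 to 0.11 for IGKV12-41, -0.069 to 0.099 for TRAV6-1, -0.032 to 0.29 for Cd74 and -0.084 to 0.24 for H2-Ab1. The causes were not tested.

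Of 2 segment probes called along IGKC, 1 was called over all probes, without normalization between arrays and with plain floored intensities, and 0 with detection on all arrays (fewer probes tested), an offset of 50 and the title number as a fixed replicate block. Without 1 animal 0 to 2 were called. The number of all probes called was 51 with the first principal component as a further term, 1 with an offset of 50 and 1 with detection on all arrays. Signals near the detection limit restrict all V segment and T cell receptor results.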
